A study of Mus musculus with 97 samples.

Results

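The data set described here holds 8 captured regions of cortex from APOE4 mice treated with doxorubicin plus docetaxel (DD) and 8 from APOE4 mice given vehicle, each sequenced as 1 library. Genes were kept where the count, divided by that of the combined negative probe of the same library, had a median above 2 over these 16 libraries. This held for 127 of the 19962 genes measured (0.636%). The lowest ratios inside the limit were those of Fgf2 (2.00), Pigb (2.01) and Uqcc3 (2.04), and the highest outside it were those of Pcdh18 (also 2.00 when rounded), Rtp1 (1.99) and Rps20 (1.99). The rule used the levels of both groups together and not the difference between them.

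The study profiled brain sections of 8 µm with the NanoString GeoMx Whole Transcriptome Atlas, in which ultraviolet light frees the tags of gene probes from a chosen region and the tags are counted by sequencing. DD mice were older animals with a human APOE4 knock-in that received weekly doses of 3 mg/kg doxorubicin and 10 mg/kg docetaxel into the peritoneum, split over 2 injections per week for 2 weeks. DC mice, also APOE4, received the same doxorubicin with 40 mg/kg cyclophosphamide each week. Vehicle mice, also APOE4, received equal parts of dimethyl sulfoxide (50%) and phosphate-buffered saline, and both drug groups are set against them. Further groups used here are DD (9 libraries) and vehicle (8) cortex of mice with human APOE3, DC cortex of APOE4 mice (8), and DD and vehicle hippocampus of APOE4 mice (8 each). The study's title asks about inflammation, metabolism and neuroprotection after chemotherapy with the APOE4 allele. Age in weeks, sex, the number of mice and the mouse from which each region came are not stated in the labels, so regions were taken as independent, and every p-value over regions comes out too small if some of them are from the same mouse. All APOE4 libraries lay on 1 collection plate and all APOE3 libraries on another.

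Doxorubicin is an anthracycline that traps topoisomerase II on DNA and causes strand breaks. Docetaxel is a taxane that stabilises microtubules and stops dividing cells in mitosis. Both are given in breast cancer and enter the brain poorly. APOE4, the human apolipoprotein E allele tied to the risk of Alzheimer disease, codes for a lipid carrier made in the brain mainly by astrocytes.

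Total counts ran from 32488 to 214512 in DD libraries and from 36866 to 95612 in vehicle libraries, with means of 90446 ± 62392 and 59875 ± 20830 (SD, n = 8 each). The lowest value of these tables is 1, and whether a count of 0 was written as 1 is not given in the sources used here. Less 1 for each gene, the totals ran from 12526 to 194550 in DD libraries and from 16904 to 75650 in vehicle libraries. The negative probe, which has no target and measures background, averaged 3.95 ± 2.96 in DD and 2.47 ± 0.854 in vehicle libraries. Neither difference passed a two-sided exact permutation test over libraries (p = 0.276 for the total and 0.248 for the negative probe, both 0.460 after adjustment over 5 library measures). The median gene of the table stood at 0.996 times the negative probe. The median of the 127 genes was 3.39 ± 0.787 times background in DD libraries and 3.52 ± 0.267 times in vehicle libraries (exact permutation p = 0.701). DD library 2 had the highest negative probe (9.93) and the lowest such median (1.71).

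Mtch2, which inserts proteins into the outer membrane of mitochondria and binds the death factor BID, had the highest probe signal, with a median of 373 times background. The predicted genes Gm10265, Gm52523 and Gm46840 followed at 233, 134 and 109 times. Then came Tysnd1, a peroxisomal protease (93.2 times), the predicted gene Gm33888 (86.5 times), Chic2, a palmitoylated membrane protein (51.9 times), and Cd99, a surface glycoprotein of leukocyte migration (48.4 times). Lrr1, which brings substrates to a cullin ubiquitin ligase, stood at 42.8 times and Hmga2, a chromatin protein of embryonic and proliferating cells, at 38.9 times. These values are tag counts per probe, not scaled for transcript length or probe efficiency, and do not rank transcripts by abundance. From there the levels dropped quickly, with 27 genes above 10 times the negative probe, 42 above 5 times and 61 between 2 and 3 times. Of the 127 genes, 126 were found in the annotation of build GRCm38.p6, 125 of them protein-coding and 1, Gm46840, a long noncoding RNA.

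**Figure D1:**
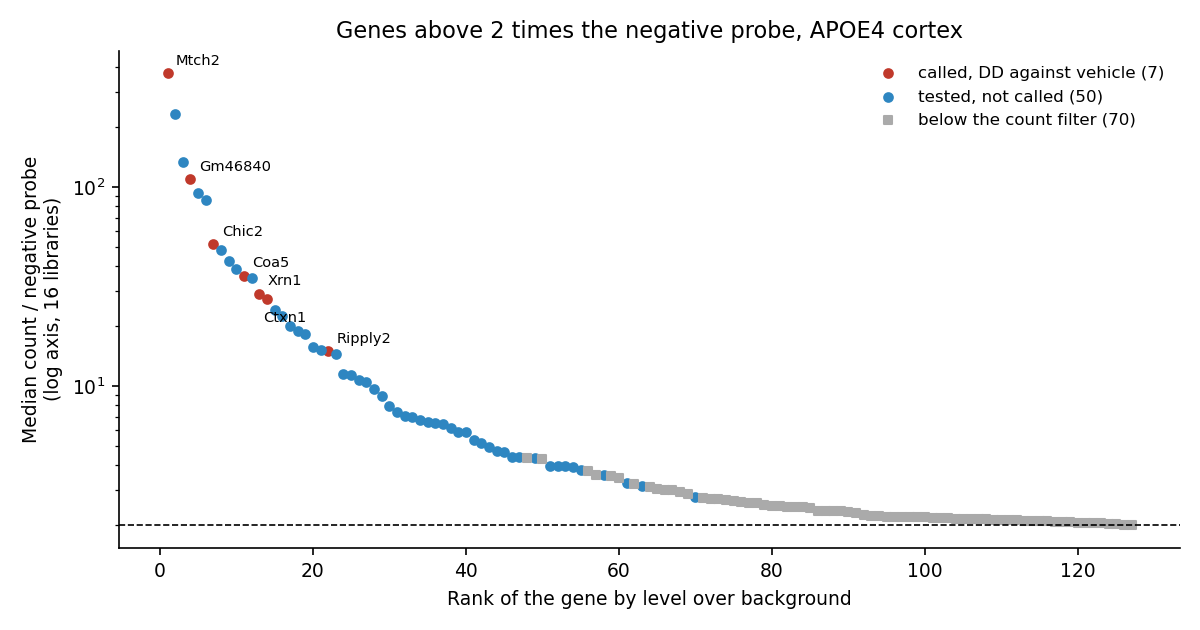
Median ratio of count to negative probe over the 16 libraries (vertical log axis) for the 127 genes above 2 times the negative probe (dashed line), by rank (horizontal axis). Red points are the 7 genes called in DD against vehicle, blue points the 50 tested genes not called and grey squares the 70 genes below the count filter. Mtch2 leads at 373 times the negative probe, and all 7 called genes stand above 10 times.

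After DD, 5 genes were lower than in vehicle cortex and 2 were higher. Mtch2, the somite corepressor gene Ripply2, the cytoplasmic exoribonuclease gene Xrn1, the long noncoding RNA Gm46840 and Chic2 fell. Coa5, which helps to assemble cytochrome c oxidase, and Ctxn1, cortexin, a neuronal membrane protein enriched in cortex, rose. The changes lay between 1.35- and 1.63-fold. The count filter left 57 genes for the test, all of them among the 127, so the share called, 12.3%, is at the same time the background of this comparison. By direction, 8.77% were called lower and 3.51% higher (edgeR quasi-likelihood test on all 49 cortex libraries, Benjamini-Hochberg adjusted p under 0.05). These p-values are too small if regions come from the same mouse. The 7 calls ended (0 left) with counts summed over neighbouring wells of a group, with such runs of wells as a random block, with upper-quartile factors and with plate row G (4 libraries) left out. The direction of all 7 genes was the same in each of these fits, which reuse the libraries of the calls and so are no independent support. The calls also ended when 1 library was left out, in 9 of 16 cases (DD 1, 3, 4, 5, 6 and 7 and vehicle 4, 7 and 8).

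Values per library are given below as normalised counts per 1000 counts of the tested genes, in which each library is scaled by its TMM factor. Mtch2 read 168, 183, 155, 149.7, 205, 201, 112 and 186 in the DD libraries, against 189, 252, 189, 240.0, 258, 314, 354 and 424 in the vehicle libraries. All 8 DD values lay below the vehicle mean, and the ranges overlapped through the lowest vehicle libraries. The means were 170 ± 30.7 and 277 ± 81.7 (SD, n = 8 each; log2 fold change -0.71, SE 0.22, edgeR adjusted p = 0.0366). Unscaled, Mtch2 held 18.5% ± 3.06 of the tested counts in DD and 26.7% ± 5.79 in vehicle libraries, a difference of -8.19 percentage points (two-sided exact permutation p = 0.00186, adjusted 0.00932 over the 5 library measures). Over the means of 4 runs of wells against 4, the same difference gave an exact permutation p = 0.0286, unadjusted, the smallest this test can give, since the runs did not overlap. Both permutation tests reuse the libraries of the edgeR call, and Mtch2 was chosen with earlier results known. Neither is adjusted over the 57 tested genes, so they add no independent support to that call. Mtch2 tags were not few, with 462 to 2189 counts in DD and 527 to 2833 in vehicle libraries.

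Coa5, the other mitochondrial gene called, went the other way. Its normalised counts were 19.3, 20.5, 24.8, 21.9, 23.6, 22.8, 26.6 and 23.3 in the DD libraries, against 22.6, 21.3, 16.1, 11.2, 19.6, 19.7, 12.2 and 14.5 in the vehicle libraries. Every DD library exceeded the vehicle mean, and 4 vehicle libraries, 1, 2, 5 and 6, lay within the DD range. The means were 22.9 ± 2.32 in DD and 17.1 ± 4.26 in vehicle libraries (log2 fold change 0.43, SE 0.14, edgeR adjusted p = 0.0366). The remaining 2 mitochondrial genes tested did not pass. Fdx2, a ferredoxin of iron-sulfur cluster assembly, had a log2 fold change of 0.20 (SE 0.15, adjusted p = 0.585) and Tmem65, an inner membrane protein, one of 0.23 (SE 0.24, adjusted p = 0.628). Of the 4 mitochondrial genes, 1 rose, 1 fell and 2 did not pass, beside 12.3% called of all 57 tested genes. Their median log2 fold change was 0.22 against 0.0016 over the 57, but the largest change, that of Mtch2, was a fall (-0.71). These 4 genes thus show no shared direction.

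Xrn1 degrades messenger RNA from its decapped end. Its normalised counts were 11.3, 14.1, 12.7, 11.6, 11.1, 13.4, 8.53 and 15.0 in the DD libraries, against 17.2, 17.6, 16.5, 16.3, 12.3, 17.9, 18.9 and 22.6 in the vehicle libraries. All DD values were below the vehicle mean, and vehicle library 5 alone lay within the DD range. The means were 12.2 ± 2.03 and 17.4 ± 2.85 (log2 fold change -0.51, SE 0.18, edgeR adjusted p = 0.0490). Trir, the other RNA decay and processing gene tested, was not called, at log2 0.20 (SE 0.12, adjusted p = 0.437).

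Ripply2 codes for a corepressor that works with T-box factors in somite formation. Its normalised counts were 8.03, 7.45, 4.80, 5.48, 7.11, 5.50, 5.74 and 9.02 in the DD libraries, against 7.52, 9.12, 8.26, 8.13, 8.35, 11.9, 13.3 and 13.9 in the vehicle libraries. The 8 DD values lay below the vehicle mean, with 4 vehicle libraries, 2, 6, 7 and 8, above all of them. The means were 6.64 ± 1.48 and 10.1 ± 2.56 (log2 fold change -0.60, SE 0.21, edgeR adjusted p = 0.0490). Of the 2 other transcription regulators tested, Hmga2 averaged 18.4 ± 3.74 in DD and 25.7 ± 4.40 in vehicle libraries, was below the vehicle mean in 8 of 8 DD libraries and missed the threshold (log2 -0.50, SE 0.19, adjusted p = 0.0857). Olig2, the transcription factor of the oligodendrocyte lineage, had a log2 fold change of 0.08 (SE 0.18, adjusted p = 0.875).

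Gm46840 was the 1 tested gene of 57 whose groups did not overlap, beside the 12.3% called. Its normalised counts were 51.6, 54.0, 58.8, 58.1, 41.8, 41.7, 35.5 and 48.9 in the DD libraries, against 66.3, 69.3, 71.1, 91.9, 59.2, 68.8, 64.3 and 65.0 in the vehicle libraries. The highest DD library thus lay just under the lowest vehicle library. The means were 48.8 ± 8.43 and 69.5 ± 9.78 (log2 fold change -0.51, SE 0.16, edgeR adjusted p = 0.0366). Of the other predicted genes with high signal, Gm10265, Gm52523 and Gm33888 had log2 fold changes of 0.21, 0.13 and -0.10 (adjusted p = 0.549, 0.628 and 0.788) and were not called.

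Chic2 had the smallest fall of the 5 genes. Its normalised counts were 20.2, 19.2, 26.5, 29.1, 32.4, 19.1, 35.3 and 24.9 in the DD libraries, against 31.9, 25.2, 34.4, 40.1, 24.7, 27.2, 54.8 and 40.4 in the vehicle libraries. The groups overlapped widely, and 7 of 8 DD libraries lay below the vehicle mean. The means were 25.8 ± 6.17 and 34.8 ± 10.1 (log2 fold change -0.45, SE 0.16, edgeR adjusted p = 0.0490). Lrr1, a gene of similar probe signal, had means of 21.5 ± 5.08 and 26.3 ± 2.83 and was not called (log2 -0.30, SE 0.16, adjusted p = 0.323).

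Ctxn1 was the 1 neuronal gene called of 6 tested, beside the 12.3% called of all tested genes. Its normalised counts were 16.7, 14.9, 21.1, 23.6, 18.2, 15.3, 18.2 and 16.1 in the DD libraries, against 10.4, 12.8, 15.1, 14.5, 15.2, 15.3, 8.71 and 9.27 in the vehicle libraries. Every DD value lay above the vehicle mean, and the lowest DD libraries met the highest vehicle libraries. The means were 18.0 ± 3.01 and 12.7 ± 2.81 (log2 fold change 0.51, SE 0.16, edgeR adjusted p = 0.0366). The other neuronal genes were Sprn, a prion-like surface protein (log2 0.15), Marcks, an actin-binding substrate of protein kinase C (0.18), Calm2, a calmodulin gene (-0.34), Pcsk1, a prohormone convertase (0.09), and Inhbb, an activin subunit (-0.03), with adjusted p between 0.437 and 0.987.

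**Figure D2:**
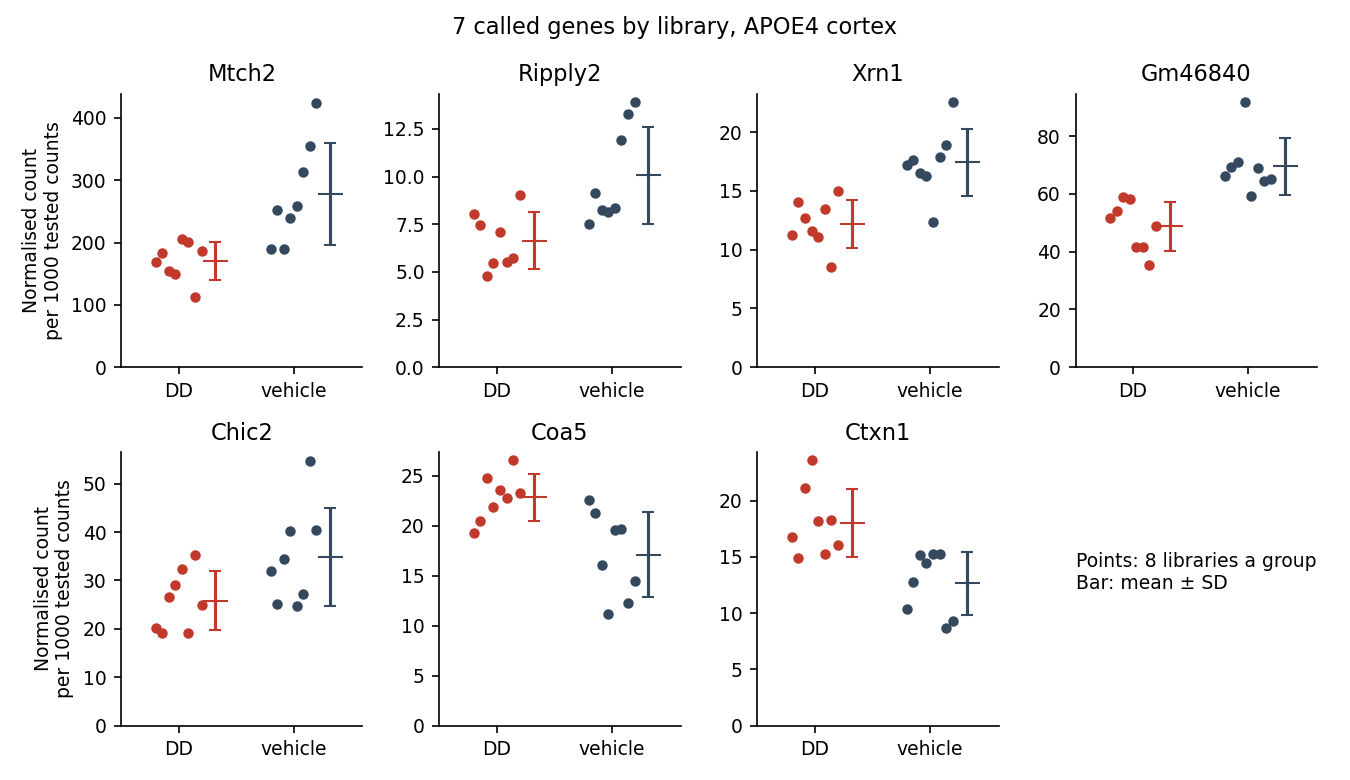
Normalised count per 1000 tested-gene counts (vertical axes from 0) of the 7 called genes in each of 8 DD (red, left) and 8 vehicle (dark, right) libraries of APOE4 cortex, with mean ± SD beside the points. Gm46840 is the gene whose groups do not overlap, and the spread of Mtch2 is wider in vehicle (SD 81.7) than in DD libraries (SD 30.7).

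Sequences at the starts of Mtch2 and Gm46840, which fell, and of Coa5 and Ctxn1, which rose, are shown as the candidate regulatory stretch of the genes with adjusted p = 0.0366. They are RefSeq sequences of build GRCm38.p6, from 250 bases before to 50 bases after the start that the RefSeq promoter table uses, with capitals marking the GC box GGGCGG on either strand.
Mtch2, chr2:90846905-90847204, plus strand: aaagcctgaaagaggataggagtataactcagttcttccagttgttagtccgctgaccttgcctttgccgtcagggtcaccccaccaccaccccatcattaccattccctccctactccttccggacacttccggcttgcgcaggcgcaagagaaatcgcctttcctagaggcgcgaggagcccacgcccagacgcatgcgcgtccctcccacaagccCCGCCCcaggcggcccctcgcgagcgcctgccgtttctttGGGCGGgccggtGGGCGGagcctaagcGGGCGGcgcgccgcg
Gm46840, chr4:3230932-3231231, plus strand: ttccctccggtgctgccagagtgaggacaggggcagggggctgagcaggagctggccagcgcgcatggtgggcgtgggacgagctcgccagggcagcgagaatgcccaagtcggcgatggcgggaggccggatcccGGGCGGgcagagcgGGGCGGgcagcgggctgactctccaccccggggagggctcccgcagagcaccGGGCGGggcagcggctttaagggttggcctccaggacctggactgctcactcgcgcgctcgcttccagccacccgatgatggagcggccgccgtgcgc
Coa5, chr1:37430054-37430353, minus strand: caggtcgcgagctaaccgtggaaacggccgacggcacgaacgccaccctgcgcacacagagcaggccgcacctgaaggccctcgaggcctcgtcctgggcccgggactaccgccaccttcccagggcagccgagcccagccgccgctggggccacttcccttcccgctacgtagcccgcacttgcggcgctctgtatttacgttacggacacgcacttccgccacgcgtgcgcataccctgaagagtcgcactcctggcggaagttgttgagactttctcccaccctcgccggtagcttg
Ctxn1, chr8:4259225-4259524, minus strand: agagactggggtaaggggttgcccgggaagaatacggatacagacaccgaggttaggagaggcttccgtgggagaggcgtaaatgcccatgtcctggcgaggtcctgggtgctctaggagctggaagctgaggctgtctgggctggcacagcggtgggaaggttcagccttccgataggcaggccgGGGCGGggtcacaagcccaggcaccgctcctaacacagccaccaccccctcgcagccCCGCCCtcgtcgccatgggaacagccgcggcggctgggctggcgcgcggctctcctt
The GC box occurred 4 times in the Mtch2 window, 3 times in that of Gm46840, 2 times in that of Ctxn1 and 0 times in that of Coa5. In the windows of Chic2, Xrn1 and Ripply2, which also fell and are not shown, it occurred 4, 1 and 0 times. Whether the number of boxes goes with the direction of change was not tested. At least 1 GC box was found in 35.7% of 32851 mouse windows of this length. The TATA box, searched as TATAAA on both strands, was in none of the 4 windows and in 13.6% of all windows. The CCAAT box, searched by those 5 letters on both strands, was also in none of the 4 and in 37.4% of all windows. Guanine and cytosine made up 64.7%, 73.3%, 66.7% and 66.3% of the 4 windows in the order shown, against a median of 52.7% over all windows. Mtch2 lies on chromosome 2 at 90847090 to 90866810, Gm46840 on chromosome 4 at 3231182 to 3258873, Coa5 on chromosome 1 at 37417085 to 37430103 and Ctxn1 on chromosome 8 at 4257646 to 4259274. The start used for the Mtch2 window lies inside the annotated gene, downstream of its outermost start, and the other 3 windows follow the outermost start. Of the others called, Ripply2 lies on chromosome 9 at 87015537 to 87020441, Xrn1 on chromosome 9 at 95954750 to 96057806 and Chic2 on chromosome 5 at 75005004 to 75044641.

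The remaining 50 tested genes did not pass, with log2 fold changes between -0.50 and 0.52. Besides Hmga2, Lrr1 and Calm2, the smallest p among lower values belonged to Txlnb, a taxilin (log2 -0.29, SE 0.21), and Rhov, a small GTPase (log2 -0.24, SE 0.19). Among higher values they belonged to Gimap4, a GTPase of lymphocytes (log2 0.52, SE 0.24), Fam177a (0.48, SE 0.23), Nemp2, a nuclear envelope protein (0.47, SE 0.24), Tysnd1 (0.21, SE 0.12) and Trir. The edgeR adjusted p of Gimap4, Fam177a, Nemp2 and Tysnd1 was 0.195, 0.211, 0.290 and 0.377. For Gimap4 the lowest vehicle library read 0.415 normalised counts, against medians of 8.49 in vehicle and 9.67 in DD libraries. For 49 of the 50 genes the 95% interval of the change lay within 2-fold either way, so changes beyond 2-fold lay outside those intervals, which take regions as independent. Mplkip, a protein linked to trichothiodystrophy, was the exception (log2 0.31, SE 0.36).

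None of the 5 leukocyte genes tested was called, beside 12.3% of all tested genes. Beside Gimap4 these were Cd99 (log2 0.10), Rgs19, a regulator of G protein signalling (-0.05), Ccl27a, a chemokine (-0.02), and Lat, an adaptor of T-cell receptor signalling (-0.21), with adjusted p of at least 0.195. None of the 3 genome maintenance genes passed, with log2 -0.08 for Elof1, an elongation factor of transcription-coupled repair, -0.02 for Lig1, the DNA ligase of replication, and the Mplkip value above. The 2 genes of the secretory pathway, Erlin2 (log2 -0.12) and Tmed2 (-0.19), were not called, nor was Pcbd2, a pterin dehydratase (-0.06). The abundant cell genes Actb, Ubb and Ptms, for cytoplasmic actin, ubiquitin and parathymosin, had log2 fold changes of -0.28, -0.27 and 0.00, each short of the threshold (adjusted p = 0.588, 0.596 and 0.996). At a share of 12.3%, a lack of calls among so few genes says nothing about any of these groups.

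**Figure D3:**
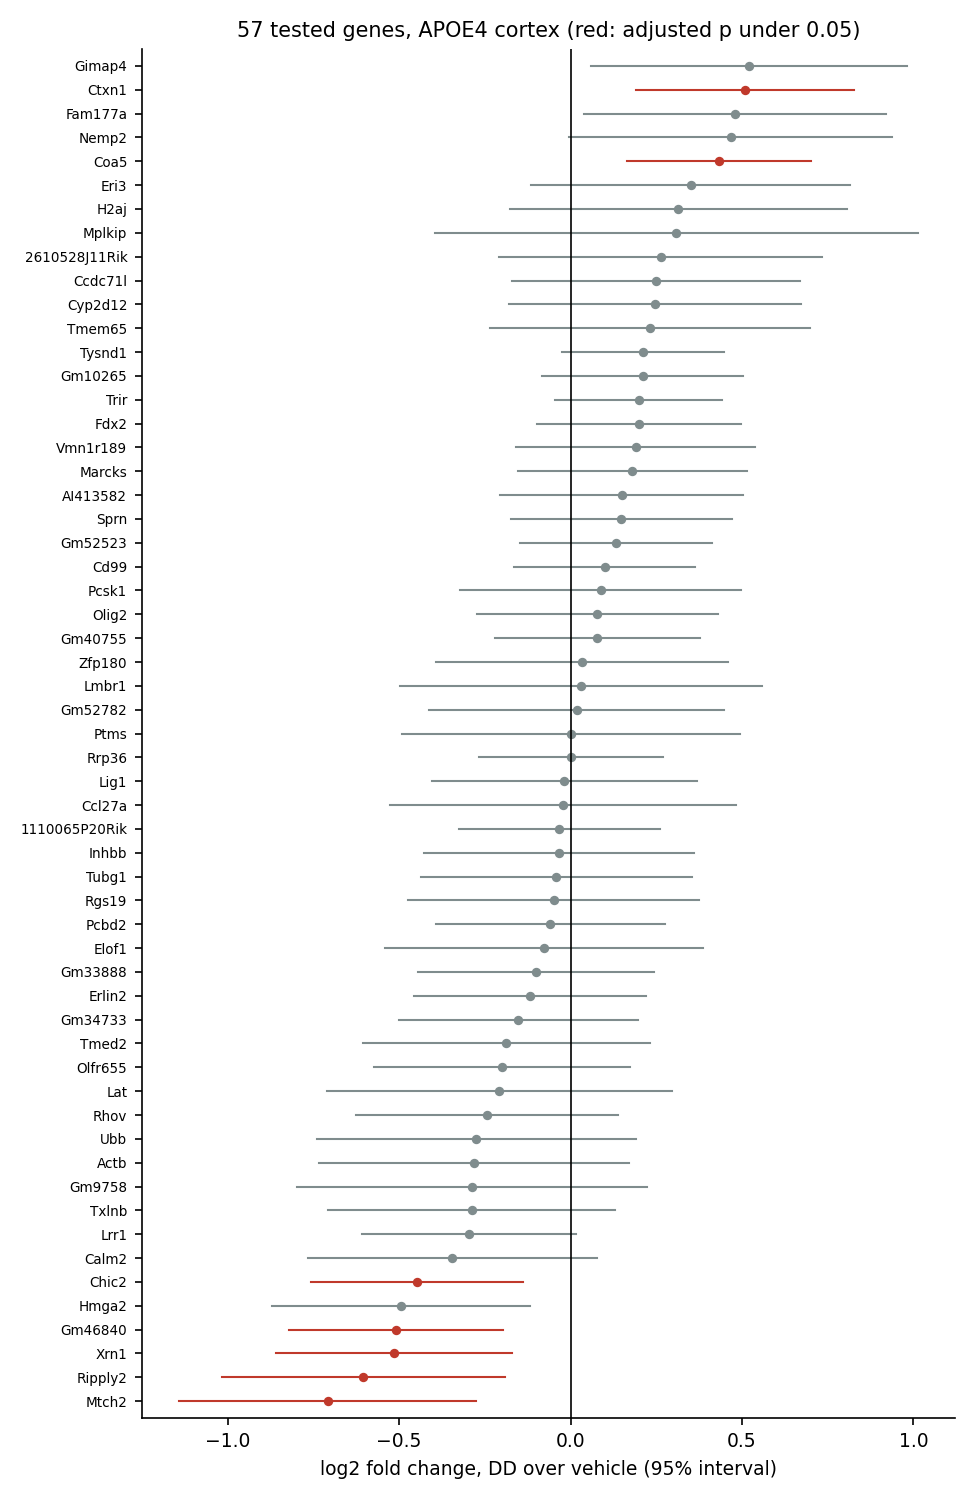
Log2 fold change of DD over vehicle with its 95% interval (horizontal axis) for the 57 tested genes of APOE4 cortex, ordered from highest (top) to lowest. Red marks the 7 genes with an edgeR adjusted p under 0.05. Values run from 0.52 for Gimap4, not called, to -0.71 for Mtch2.

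The other 70 genes above 2 times the negative probe had too few counts for the filter, with ratios of 2.00 to 4.37 and median counts of 4.5 to 12 per library. When all 127 genes were fitted together, 2 were called (1.57%), Mtch2 and Snrpn, a spliceosome gene imprinted in the brain that is named here after its value was seen. Snrpn had a log2 fold change of -0.98 (SE 0.28, edgeR adjusted p = 0.0430, too small if regions share a mouse). Its counts were 2 to 13 in DD libraries (median 5) and 2 to 17 in vehicle libraries (median 5.5), close to the lowest value in the table, and the level over the negative probe had a median of 1.54 in DD and 3.47 in vehicle libraries. Snrpn thus met the limit of 2 through the vehicle libraries, and its p is not independent of how the genes were kept. Of the 70 genes, 26 had positive and 44 negative fold changes in that fit, where the median over the 127 genes was -0.09.

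The labelled tissue could be checked against few markers. Slc17a7, a marker of excitatory neurons that loads glutamate into synaptic vesicles, reached 1.54 times the negative probe. None of the 12 hippocampus markers passed the limit, the highest being Itpka at 1.42 times, and 0 of 11 astrocyte, 0 of 12 microglia and 0 of 10 myelin markers did. The highest of these were Glul (1.97 times), Cd68 (1.35 times) and Mobp (1.11 times). In bulk regions, fewer cells of a type and less RNA per cell cannot be told apart.

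The targets of the drugs lay at background too. Top2a and Top2b, the topoisomerases II, stood at 0.850 and 1.02 times the negative probe and the neuronal tubulin Tubb3 at 0.981 times. Among 25 tubulin and microtubule genes measured, 2 exceeded the limit, the centrosomal Tubg1 (7.01 times) and Stmn1, stathmin (2.05 times). Among 25 topoisomerase and repair genes Lig1 did (7.38 times), and among 22 p53 targets Tigar (2.16 times). Tubg1 and Lig1 were tested and not called (log2 -0.04 and -0.02, adjusted p = 0.976 and 0.987), and Cdkn1a, the cell cycle inhibitor induced by p53, stood at 0.804 times.

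The gene groups of the study's title were likewise near background. Of the inflammatory lists, 0 of 25 cytokine and NF-kB target genes, 0 of 17 complement genes and 0 of 20 interferon genes exceeded 2 times the negative probe, with Ccl5 (1.44 times) highest among the cytokine and NF-kB target genes and Irf7 (1.34 times) among the interferon genes. Of the metabolic lists, 0 of 38 oxidative phosphorylation genes did (Atp5a1 highest, 1.67 times), against 2 of 20 glycolysis genes, Aldoa (2.36 times) and Pkm (2.36 times). Of 20 neurotrophic and neuroprotective factors 1 did, Fgf2. Apoe, Gfap, Aif1, Bdnf and Mbp stood at 0.722, 1.02, 0.700, 0.645 and 0.880 times.

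With every gene fitted, 13 of 19962 were called (0.0651%), 0 of them among the 127 and none with a median above 1.35 times the negative probe. Of 553 distinct genes in 35 pathway and cell type lists, 0 were called by edgeR in that fit. Unadjusted p under 0.05 were found for 32 of the 553 (5.79%), beside 5.13% of all genes. The median log2 fold change of the lists lay between -0.40 (mural cells) and 0.21 (senescence), beside -0.10 over all genes. Of a list of ribosomal protein genes, 3 of 42 measured stood above the limit (Rps24, Rpl3 and Rps4x at 2.87, 2.47 and 2.16 times), as did Rps26 outside the list (3.58 times), and the list had a median log2 fold change of -0.26.

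DD and DC share the vehicle libraries, so they were also set against each other directly. The DC cortex libraries lay in plate rows B, D, F and H, the DD and vehicle cortex libraries in rows A, C, E and G. Regimen and plate row thus cannot be told apart in DD against DC or in DC against vehicle. The 7 genes differed little, with DD minus DC log2 differences between -0.11 and 0.15 and a 95% interval within 2-fold for each of the 7. Of 57 genes, 0 were called (0%) in DD against DC by edgeR or DESeq2, and 0 had an unadjusted p under 0.05. Mtch2 averaged 170 ± 30.7 in DD and 170 ± 41.8 normalised counts in DC libraries, beside 277 ± 81.7 in vehicle (log2 difference between the regimens -0.00, SE 0.22). Against vehicle, DC gave 1 call (1.75%), Ctxn1 (log2 0.58, SE 0.16, edgeR adjusted p = 0.0370). Mtch2, Gm46840 and Chic2 had DC values of -0.70, -0.48 and -0.45 (adjusted p = 0.0639, 0.0740 and 0.0772), and Coa5 one of 0.28 (adjusted p = 0.204). All of these p-values are too small if regions share a mouse.

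The same drugs in APOE3 cortex gave 2 calls (3.51%), Mtch2 (log2 -0.87, SE 0.22) and Ripply2 (log2 -0.91, SE 0.22), each with edgeR adjusted p = 0.00450. Mtch2 averaged 233 ± 61.6 in APOE3 DD (n = 9) and 424 ± 133 in APOE3 vehicle libraries (n = 8). The test of the difference between genotypes called 0 of 57 genes (0%) by edgeR and DESeq2, with 1 unadjusted p under 0.05. That gene was Chic2, which had means of 43.5 ± 5.79 in APOE3 DD and 43.3 ± 9.04 in APOE3 vehicle libraries, a log2 fold change of 0.01 there against -0.45 in APOE4 (interaction -0.45, SE 0.22, adjusted p = 0.719). Gm46840 was similar, with 42.3 ± 10.3 in APOE3 DD and 43.6 ± 13.2 in APOE3 vehicle libraries (interaction log2 -0.44, SE 0.23, adjusted p = 0.719). None of the 7 genes was thus shown to respond differently by genotype, and genotype and plate cannot be told apart.

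In hippocampus of the same APOE4 groups, 3 of 58 genes were called after DD (5.17%) in a fit to all 97 libraries, namely Mplkip (log2 -2.69), Coa5 (log2 0.62, SE 0.19, edgeR adjusted p = 0.0300) and Tysnd1 (log2 0.63, adjusted p = 0.00541). Without vehicle hippocampus library 3, in which Mplkip had 484 counts, 1 gene was called, Tysnd1 (log2 0.68, edgeR adjusted p = 0.00645), while Coa5 stood at log2 0.63 (adjusted p = 0.0536) and Mplkip at -0.30 (SE 0.36, adjusted p = 0.738). Mtch2 had a log2 fold change of -0.13 there (SE 0.27, adjusted p = 0.982), and the difference between regions did not pass (log2 -0.56, SE 0.38, adjusted p = 0.724). Ctxn1 had values of 0.47 in hippocampus (adjusted p = 0.182) and 0.51 in cortex. The test of the region difference called 1 of 58 genes (1.72%), Mplkip, and 0 without the same library, where the log2 difference of Mplkip was 0.63 (SE 0.48, adjusted p = 0.725), against 3.03 with it. In this fit to both regions the 7 cortex genes all had adjusted p = 0.120 in DD against vehicle. These p-values carry the same limit of shared animals.

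**Figure D4:**
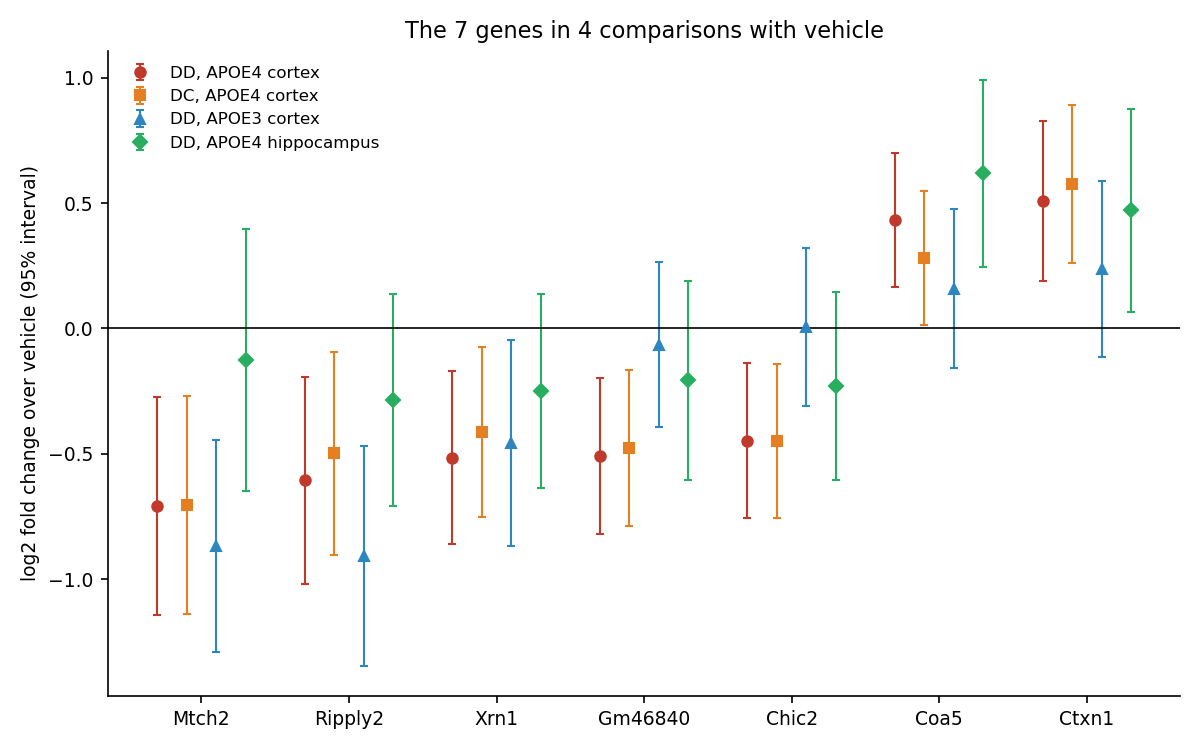
Log2 fold change over vehicle with its 95% interval (vertical axis) of the 7 genes (horizontal axis) for DD in APOE4 cortex, DC in APOE4 cortex, DD in APOE3 cortex and DD in APOE4 hippocampus. DD and DC of APOE4 cortex share their vehicle libraries, and the DC libraries lay in other plate rows than the DD and vehicle libraries. Mtch2 lies at -0.71, -0.70, -0.87 and -0.13 in that order, and Coa5 is positive in all 4.

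The 16 libraries sit in 4 plate rows, each with 2 DD and 2 vehicle libraries, so the difference could be taken within rows. In every row the vehicle libraries lay in well columns 2 and 3 and the DD libraries in columns 9 to 11. Treatment and column position thus cannot be told apart, with or without the row as a block. The 7 genes were called on these same libraries, so a shared sign over rows is largely set by that choice and is no replication. How many of the tested genes not called keep 1 sign over the rows was not counted. Mtch2 differed by log2 -0.31, -0.48, -0.49 and -1.42 in plate rows A, C, E and G. Plate row G held vehicle libraries 7 and 8, the 2 with the most Mtch2. Gm46840 was the most even, at -0.36, -0.47, -0.61 and -0.63. Ctxn1 had positive and Xrn1, Ripply2 and Chic2 negative differences in all 4 rows, with ranges of 0.13 to 0.90, -0.84 to -0.27, -0.87 to -0.09 and -0.66 to -0.05. Coa5 was positive in 3 of 4 rows, at 0.78, 0.23 and 0.88, and -0.14 in row A. With the row as a block, a fit to the 16 libraries called 9 of 57 genes, including all 7, whereas leaving out row G left 0 calls, with Mtch2 at log2 -0.44 (adjusted p = 0.385).

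**Figure D5:**
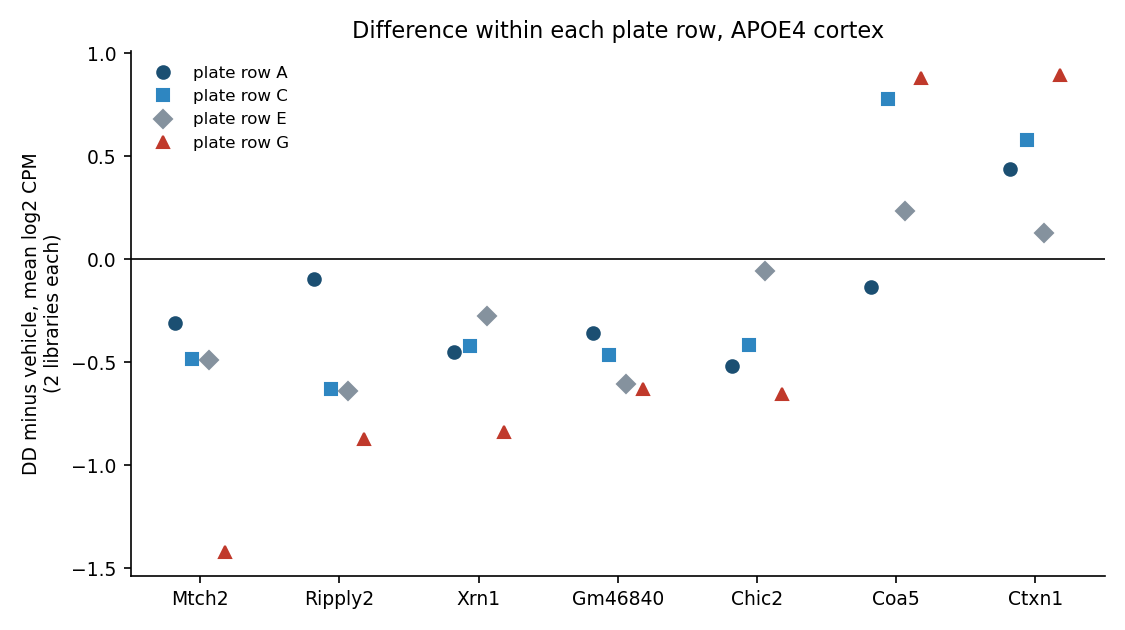
Difference in mean log2 CPM, DD minus vehicle (vertical axis, CPM of the tested genes), within each of the 4 plate rows for the 7 called genes (horizontal axis). Each point compares 2 DD with 2 vehicle libraries. Row G (red triangles) holds the lowest value for 5 of the 5 lower genes and the highest for both higher genes.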

How the data were processed

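Tags of the mouse Whole Transcriptome Atlas were counted in 97 captured regions; per the labels' protocols they were sequenced on an Illumina NovaSeq instrument, with mm10 as the genome build in the submitters' processing notes. No source used here names the counting tool. The authors deposited expected counts for each probe target, unscaled and whole in all but 4 rows; these were rounded here. The lowest value is 1 in 94 of 97 libraries.

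The genes, lists and tests were chosen with earlier results of these data known. Genes were kept at a median ratio to the negative probe over 2. edgeR 4.0.16 (R 4.3.3) was fitted to the 49 cortex libraries in 6 groups with TMM scaling, filterByExpr (minimum count 10) and the quasi-likelihood F test, with Benjamini-Hochberg adjusted p under 0.05 called; region comparisons used all 97 libraries in 12 groups. The code was tested on simulated data. Tested genes held 2267 to 10583 counts per library in the 16 libraries, 2.39% to 9.24% of the total; this limits precision, with a median standard error of 0.20 on the log2 scale. For library measures, exact permutation tests (scipy, two-sided) were used. Named were the genes called, those in role lists, the 5 smallest p in each direction, the 10 highest levels, up to 4 leading genes of a list, and a fixed set including Apoe and Gfap. Alternatives were other scalings, DESeq2 1.42.0, other filters and library sets, blocks by run of wells (limma 3.58.1) or plate row, background subtraction, and leaving out each library. Values of a few marker and list genes are not reported here.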

Additional observations from a re-analysis of the deposited data

Results flagged for a closer look

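Over 124 sets of 8 values (57 genes and 5 library measures in DD and in vehicle libraries), 6 held 1 library set apart from the other 7 by Dixon's test, or 4.84%, and chance flags about 1 in 20. Among the called genes this was Gm46840 in vehicle library 4, at 91.9 normalised counts per 1000, where the next highest vehicle library had 71.1. The other genes were Ccl27a in DD library 2 (3.15, next 2.11), Ptms in vehicle library 4 (4.06, next 2.39) and Vmn1r189, a vomeronasal receptor, in vehicle library 4 (4.32, the lowest, next 5.47). These rest on 16 to 19 counts for Ccl27a, Ptms and Vmn1r189. DD library 8 had the highest count of tested genes (10583), and DD library 2 the lowest median level over the negative probe (1.71).

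The DD response of Mplkip differed between regions of APOE4 mice, by log2 3.03 (cortex minus hippocampus). Vehicle hippocampus library 3 held 484 Mplkip counts, where the other 47 hippocampus libraries had a median of 6 and a highest value of 97, and without it the log2 difference was 0.63.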

How the results depend on the processing

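All alternatives refit libraries on which the 7 genes were called, so the constant direction of these genes is no independent support. The direction of the 7 called genes was the same in every alternative run for each (35 for Mtch2, which 1 alternative leaves out, and 36 for the other genes), but the number of genes past the threshold, 7 in DD against vehicle, was not. It was 0 under upper-quartile scaling, with library totals, with TMM factors from all genes, with counts summed over runs of wells, with the run as a random block, and in 3 alternatives chosen after seeing the data: the negative probe as library size, plate row G left out, and a fit to all 97 libraries. It was 3 by DESeq2 (all among the 7), 13 with no filter on low counts, 2 with the 127 genes of the rule, 2 with 1 subtracted from every value, and 2 with Mtch2 left out (Ctxn1 and Coa5). Other settings gave 5 to 9. Leaving out 1 library at a time gave 0 to 7 calls, with 0 in 9 of 16 cases (DD 1, 3, 4, 5, 6 and 7 and vehicle 4, 7 and 8). Mtch2 kept its call in 17 of 35 settings, Gm46840 in 15 of 36 and Chic2 in 6 of 36. The cause was not tested.

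Without the 2 DD libraries with a negative probe of 5 or more, 6 of the 7 genes were still called. DD against DC gave 0 calls except with no filter (26). The region difference gave 1 call except with no filter (26), with the run as a random block (0) and without the vehicle hippocampus library named in the report (0, chosen after seeing the data). The genotype difference gave 0 calls in all settings. The share of Mtch2 differed by -9.16 to -6.67 percentage points when 1 library was left out. With the limit at 1.5 or 3 times the negative probe, 669 or 66 genes would be kept. No paired analysis was possible by replicate number because the labels give none, and plate rows served as the block instead (9 calls). Depth limits all of this: genes under the filter had median counts of at most 12.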
